A study of Mus musculus with 51 samples.

Results

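Hmga2, Hmgb2 and Hmgb3, genes of architectural proteins that bind and bend DNA in chromatin, were followed in mouse cells labelled as HMGN knock outs or as pools that overexpress HMGN proteins, which bind the nucleosome. Hmga1, Hmga2, Hmgb1, Hmgb2 and Hmgb3 were the 5 genes sought, and a probe set (a group of short oligos that reads a transcript) was taken where the platform annotation gives it to 1 of them alone. This left 8 of the 45101 probe sets of the array, which read 3 of the 5 genes (of 18194 genes with a probe set of their own). Hmga2 had 4 (1422851_at, 1446196_at, 1450780_s_at and 1450781_at), Hmgb2 had 3 (1437313_x_at, 1438307_at and 1452534_a_at) and Hmgb3 had 1 (1416155_at). No probe set of Hmga1 was found in the annotation used here. Hmgb1 was named on 5 probe sets, each with another gene: all 5 also carry the predicted gene Gm21596, and 1448235_s_at carries 4932431P20Rik as well. Those 5 are described as shared probe sets and not as Hmgb1.

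The study hybridised total RNA to Affymetrix Mouse Genome 430 2.0 arrays, 51 in all, in 17 groups of 3. Primary mouse embryonic fibroblasts (MEFs) of strain C57BL/6 formed 6 groups: HMGN1 knock out and HMGN1 WT, HMGN3 knock out and HMGN3 WT, HMGN5 knock out and HMGN5 WT. SV40 transformed MEFs, an immortalised line, formed 8 groups of infected pools: empty vector, HMGN1, HMGN2, HMGN3a, HMGN5, HMGN5SE, HMGN1_N2swap and HMGN1_N3swap. The labels do not describe the changes behind the last 3 names. MIN6 cells, a mouse insulinoma line that models the pancreatic beta cell, formed 3 groups of pools, with empty vector, HMGN1 or HMGN3a. All pools, the vector controls included, went through the retroviral protocol: polybrene at 5 µg/ml, puromycin at 1 µg/ml for 7 days, then 24 hours without drug before RNA was taken. That protocol stands on the primary cells too, whose labels name no construct. The pools hold all infected cells and not clones. The labels number the replicates without saying whether they came from separate cultures, so the tests measure the spread between these arrays, which may be technical.

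As background, HMG proteins form 3 families. HMGA proteins hold the minor groove of AT-rich DNA with AT hooks. Hmga2 belongs to the embryo, is high in embryonic fibroblasts and is held down by let-7 microRNAs. HMGB proteins bend DNA with paired HMG boxes; Hmgb2 is high in dividing cells, and Hmgb1 also acts outside the cell as an alarm signal. HMGN proteins bind the nucleosome core, and members of all the families compete with linker histone H1 for chromatin.

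The stretches upstream of the 3 measured genes are shown so that the promoters of the Hmga and Hmgb genes compared below can be set side by side. Each stretch is the 250 bases before the start that RefSeq gives on GRCm38.p6, 5′ to 3′ on the gene's strand, with every CCAAT box (CCAAT, or ATTGG where it lies on the other strand) in capitals.
Hmga2 (chr10:120476470-120476719, minus strand): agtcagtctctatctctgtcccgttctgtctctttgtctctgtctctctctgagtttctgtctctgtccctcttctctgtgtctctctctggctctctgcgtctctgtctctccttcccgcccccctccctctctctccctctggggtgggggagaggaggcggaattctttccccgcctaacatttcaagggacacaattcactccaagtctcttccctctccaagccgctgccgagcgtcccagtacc
Hmgb2 (chr8:57511593-57511842, plus strand): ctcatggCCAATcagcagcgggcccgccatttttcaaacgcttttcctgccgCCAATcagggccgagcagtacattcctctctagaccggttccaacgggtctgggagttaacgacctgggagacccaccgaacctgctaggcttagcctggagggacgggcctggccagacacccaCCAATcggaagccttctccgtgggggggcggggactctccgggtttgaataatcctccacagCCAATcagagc
Hmgb3 (chrX:71555667-71555916, plus strand): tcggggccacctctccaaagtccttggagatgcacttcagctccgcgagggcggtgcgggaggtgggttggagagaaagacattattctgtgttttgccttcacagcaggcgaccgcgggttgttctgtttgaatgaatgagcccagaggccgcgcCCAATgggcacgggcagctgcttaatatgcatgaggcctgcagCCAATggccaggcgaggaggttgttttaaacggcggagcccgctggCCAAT
The Hmgb2 stretch held 4 CCAAT boxes, beginning 243, 198, 73 and 11 bases before the start. The Hmgb3 stretch held 3, at 94, 51 and 5 bases. The Hmga2 stretch held 0, with a GC content of 56.4% against 60.4% for Hmgb2 and 58.8% for Hmgb3. At least 1 such box on either strand was found in 33.8% of 32851 promoters of the same length. The sequence TATAAA, sought on either strand, was in none of these 3 stretches and in 12.4% of all promoters. Such matches describe letters and not binding.

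The deposited values differed in scale between the cell types, with median intensities per array of 5.46 to 5.93 in primary MEFs, 18.7 to 19.6 in the transformed MEFs and 55.4 to 57.5 in MIN6; every level below is therefore read against its own cell type. HMGN1_N2swap replicate 3 and HMGN1_N3swap replicate 1 resembled each other (r = 0.778 over tested probe sets, each centred on its mean) more than any array of their own groups (0.491 and 0.577 at most), and swap results are therefore given with and without them. HMGN1_N2swap replicate 1 was closest to HMGN1_N3swap replicate 2 (0.773, against 0.764 in its own group). Vector replicate 3 of the SV40 transformed MEFs was closest to HMGN5SE replicate 3 (0.649 against 0.612), and that of MIN6 to HMGN1 replicate 3 (0.56 against 0.494). Hmgn1 fell on its 3 tested probe sets in HMGN1 knock out, by 0.67 to 0.89 on the log2 scale, and Hmgn3 fell on both of its own in HMGN3 knock out, by 1.30 and 1.46. Hmgn5 (1418152_at) stood at 5.84, 5.63 and 5.59 on the arrays labelled HMGN5 knock out and at 5.21, 4.89 and 4.80 on HMGN5 WT, higher by 0.72 ± 0.12 (SE, adjusted p = 0.0247), so a direction drawn from that label rests on arrays that go against it. Where this probe set lies relative to the deleted part is not given. In the pools the native probe sets mostly did not show the construct: with HMGN1, Hmgn1 (1422495_a_at) averaged 11.89 in SV40 transformed MEFs, as with the vector, and 12.50 in MIN6 against 12.54. With HMGN3a, Hmgn3 did not pass the test in SV40 transformed MEFs (-0.02 and -0.23) and rose in MIN6 by 0.26 and 0.23 (adjusted p = 0.0163 and 0.0156). With HMGN5, Hmgn5 averaged 7.62 against 8.55, a difference of -0.93 (adjusted p = 1.12e-08). Whether these probes read the constructs is not given, so the pools are named by their labels. Fibroblast markers reached the filter level for 11 of 11 genes in primary MEFs, 10 of 11 in SV40 transformed MEFs and 3 of 11 in MIN6 cells, and beta cell markers for 2, 2 and 11 of 11.

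A probe set was tested in a cell type where its highest group mean reached the 40th percentile of all group means there, and called where limma gave an adjusted p below 0.05 over all probe sets tested. Levels below are log2 intensities in the order of replicates 1, 2 and 3. Differences are log2 differences of group means with their SE. How many of all probe sets had groups without overlap was not counted, so a lack of overlap below only describes the arrays. In primary MEFs 7 of the 8 probe sets passed the filter. Hmgb2 1438307_at, at 0.94 to 1.43 over the 18 arrays, did not, and Hmga2 1446196_at passed at 1.76 to 2.54, near the filter level of 1.99. In SV40 transformed MEFs all 8 passed, with Hmga2 1446196_at again dim. In MIN6 cells 4 of 8 passed. The 4 probe sets of Hmga2 lay between 3.47 and 5.21 there, with no group mean at the filter level of 5.13, so no change of Hmga2 could be tested in the beta cell line.

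Hmgb2 was the member with the widest gap in the knock outs, but no member passed the test in any of the 3. In HMGN1 knock out, Hmgb2 1452534_a_at read 7.17, 7.73 and 7.56, against 8.05, 8.11 and 8.10 in HMGN1 WT. The groups did not overlap, which was not counted over all probe sets. The difference was -0.60 ± 0.14 (SE, 1.51-fold lower, adjusted p = 0.0836). The second tested Hmgb2 probe set, 1437313_x_at, read 6.37, 6.77 and 6.59 against 6.96, 7.16 and 7.04, a difference of -0.48 ± 0.11 (SE, adjusted p = 0.0803). These 2 values passed only when arrays were weighted by their fit (-0.53, adjusted p = 0.00364, and -0.45, adjusted p = 0.00251). How many of all probe sets passed with such weights is not given here. Hmgb3 followed at -0.31 ± 0.12 (SE, adjusted p = 0.262), and the Hmga2 probe sets lay between 0.06 and 0.17, with adjusted p of 0.467 to 0.846. Over all 28578 probe sets tested, 0.304% were called in this comparison, and 4172 had an unadjusted p under 0.05.

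Other measures moved with Hmgb2 in HMGN1 knock out. Of 25 tested DNA replication genes 4 fell, with a list median of -0.37 against -0.02 over all probe sets: the polymerase subunit Pola1 by 0.60 ± 0.11 (SE, adjusted p = 0.0329), and Mcm7, Mcm6 and Mcm2, parts of the replicative helicase, fell by 0.44, 0.42 and 0.40. Of 24 mitosis genes none was called, at a median of -0.51. Xist, transcribed from the inactive X, stood at 3.14, 8.61 and 7.40 in the knock out and at 8.57 to 8.63 in the WT, and the lowest Hmgb2 value came from the knock out array with the lowest Xist. Knock out replicate 2, with Xist at 8.61, read 7.73 on Hmgb2 1452534_a_at, also below every HMGN1 WT array. HMGN5 WT, with Xist at 2.40 to 2.78, read 8.28, 7.70 and 8.04 on that probe set. A score was made from the linear intensities of Y-linked genes, each scaled from its lowest to its highest primary MEF array. It is no measured share of male cells. With that score in the fit, the Hmgb2 differences were -0.48 (adjusted p = 0.174) and -0.45 (adjusted p = 0.133). The summed level of 9 macrophage and leukocyte markers was 343 to 479 in the knock out and 480 to 511 in the WT (linear intensity). In such bulk RNA, fewer cells of a type and less RNA per cell cannot be told apart.

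Hmga2 had negative differences in HMGN3 knock out on all 4 probe sets, -0.23 to -0.34, but with adjusted p of 0.237 to 0.651 none was called. Its brightest probe set, 1422851_at, read 10.21, 10.27 and 10.27, against 10.51, 10.45 and 10.48 in HMGN3 WT, and 1450780_s_at read 9.41, 9.42 and 9.39 against 9.72, 9.75 and 9.71. These groups did not overlap, which was not counted over all probe sets. The difference of 1450780_s_at was -0.32 ± 0.09 (SE, adjusted p = 0.237). Hmgb2 and Hmgb3 lay between -0.03 and 0.17, and their arrays overlapped. In this comparison 0.416% of probe sets were called, and 2193 had an unadjusted p under 0.05.

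On the arrays labelled HMGN5 knock out, all member differences were between -0.05 and 0.24, with adjusted p of 0.83 or more. Hmga2 1422851_at read 9.96, 9.70 and 9.81 against 10.02, 9.61 and 9.78, and Hmgb2 1452534_a_at read 8.18, 8.13 and 8.06 against 8.28, 7.70 and 8.04. The background was 0.105% of probe sets called, with 1688 at an unadjusted p under 0.05. Contrasts between the knock outs called no member either. The largest gap was that of Hmgb2 1452534_a_at between the HMGN1 and HMGN5 effects, -0.71 ± 0.20 (SE, adjusted p = 0.184). The share of probe sets called was 0.283% for HMGN1 less HMGN3, 0.213% for HMGN1 less HMGN5 and 0.22% for HMGN3 less HMGN5.

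Of the primary MEF contrasts run, those between WT cultures held the only Hmga2 calls. HMGN3 WT was higher than HMGN5 WT on all 4 probe sets. On 1422851_at HMGN3 WT read 10.51, 10.45 and 10.48, HMGN1 WT read 9.89, 10.24 and 10.09, and HMGN5 WT read 10.02, 9.61 and 9.78. HMGN3 WT stood above every array of the other WT groups, which overlapped each other. The difference of HMGN5 WT from HMGN3 WT was -0.68 ± 0.11 (SE, 1.60-fold lower, adjusted p = 0.000527), and the other Hmga2 probe sets gave -0.64 (1450780_s_at, adjusted p = 0.000244), -0.64 (1450781_at, adjusted p = 0.00043) and -0.41 (1446196_at, adjusted p = 0.0208). The dim 1446196_at lost its call in 4 of 6 fits that left out 1 array (HMGN3 WT replicate 1 or 3, HMGN5 WT replicate 2 or 3), with adjusted p of 0.058 to 0.1. In this contrast 12.9% of probe sets were called.

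HMGN3 WT was also above HMGN1 WT, by 0.41 ± 0.11 (SE, adjusted p = 0.0128) on 1422851_at, 0.37 (adjusted p = 0.00992) on 1450780_s_at and 0.39 (adjusted p = 0.0111) on 1450781_at. Without HMGN1 WT replicate 1 these became 0.32, 0.27 and 0.30, and none was called (adjusted p of 0.0555 to 0.0671). The background was 24.3% of probe sets called. Between HMGN5 WT and HMGN1 WT no member was called, against 8.83% of probe sets. Hmgb2 and Hmgb3 were called in none of the WT contrasts. The WT groups differed in other ways too: Xist was 8.57 to 8.63 in HMGN1 WT and 2.40 to 2.78 in HMGN3 WT and HMGN5 WT. Of 9 macrophage and leukocyte markers, 5 passed the test as higher between HMGN3 WT and HMGN1 WT, and their summed linear intensity was 1120 to 1210 in HMGN3 WT, 480 to 511 in HMGN1 WT and 541 to 1000 in HMGN5 WT. Between HMGN5 WT and HMGN3 WT none of the 9 was called (list median -0.71). The summed level of 6 epithelial markers was 60.7 to 65.8 in HMGN3 WT, 42.6 to 44 in HMGN1 WT and 45 to 45.6 in HMGN5 WT; of 5 tested, 3 were higher in HMGN3 WT against HMGN1 WT and 2 lower in HMGN5 WT against HMGN3 WT. The part of such cells in the Hmga2 differences was not tested.

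**Figure D1:**
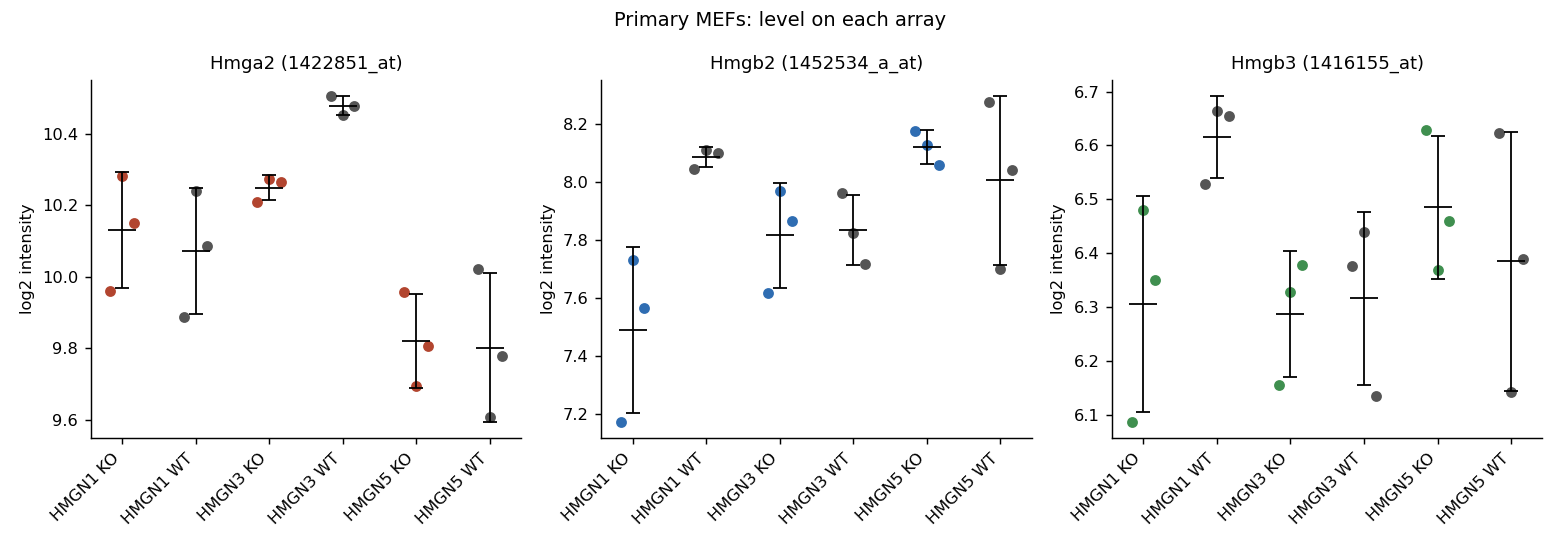
Log2 intensity of Hmga2 (1422851_at), Hmgb2 (1452534_a_at) and Hmgb3 (1416155_at) on each of the 18 primary MEF arrays by group; points are arrays, bars the mean ± SD (n = 3) and grey points WT. Hmga2 is highest in HMGN3 WT (10.45 to 10.51), and Hmgb2 in HMGN1 knock out (7.17 to 7.73) lies below HMGN1 WT (8.05 to 8.11).

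The comparisons below share the 3 empty vector arrays. In the SV40 transformed pools Hmga2 fell with HMGN1 and HMGN2 and rose with both swap constructs. On 1422851_at the vector pools read 11.08, 11.15 and 11.06. The HMGN1 pools read 10.62, 10.95 and 10.65, all below the vector, and HMGN2 pools were lower again at 10.60, 10.48 and 10.35. The HMGN5 pools read 10.86, 10.83 and 10.90. The HMGN1_N2swap pools read 11.51, 11.54 and 11.46, and the HMGN1_N3swap pools 11.40, 11.55 and 11.58, all above every other array of this cell type. HMGN3a (11.15, 10.98 and 11.09) and HMGN5SE (11.28, 11.18 and 11.14) overlapped the vector. From the top, the order was the swaps, then HMGN5SE, vector and HMGN3a, then HMGN5 and HMGN1, then HMGN2; the groups named together overlapped their neighbours and the sets did not.

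With HMGN2, Hmga2 fell by 0.62 ± 0.08 (SE, 1.53-fold, adjusted p = 5.21e-06) on 1422851_at and fell by 0.50 ± 0.07 (SE, adjusted p = 8.89e-06) on 1450780_s_at. The remaining probe sets did not follow: 1450781_at gave 0.10 ± 0.14 (SE, adjusted p = 0.604), and the dim 1446196_at gave 0.43 ± 0.16 (SE, adjusted p = 0.0397), a call lost in 5 of 6 fits that left out 1 array (all but vector replicate 1; adjusted p of 0.0501 to 0.174). The HMGN2 comparison called 39.8% of probe sets. With HMGN1, Hmga2 fell by 0.36 ± 0.08 (SE, 1.28-fold, adjusted p = 0.00369) on 1422851_at and fell by 0.36 ± 0.07 (SE, adjusted p = 0.000679) on 1450780_s_at. On 1450781_at the difference was -0.40 ± 0.14 (SE, adjusted p = 0.0477), and leaving out any 1 of the 6 arrays took it past the threshold (adjusted p of 0.0556 to 0.182). The block for replicate number did the same (adjusted p = 0.0597). The HMGN1 comparison called 20.9% of probe sets.

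With HMGN5, Hmga2 fell by 0.27 ± 0.07 (SE, adjusted p = 0.00424) on 1450780_s_at and fell by 0.23 ± 0.08 (SE, adjusted p = 0.0322) on 1422851_at. The second call was lost without vector replicate 1 or 2 or HMGN5 replicate 1 or 2 (adjusted p of 0.0625 to 0.107). On 1450781_at the difference was -0.35 ± 0.14 (SE, adjusted p = 0.0625). The background was 33.3% of probe sets called. Fibroblast markers moved in the same pools: 8 of 11 rose with HMGN2 and 8 of 11 with HMGN5, with list medians of 1.57 and 1.69, and their summed linear intensity was 22000 to 23800 with HMGN2, 26900 to 27600 with HMGN5 and 14500 to 14900 with the vector. With HMGN1 it was 15200 to 15700. The part of this shift in the Hmga2 differences was not tested.

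With HMGN1_N2swap, Hmga2 rose on all 4 probe sets: by 0.41 ± 0.08 (SE, 1.33-fold, adjusted p = 0.000686) on 1422851_at, 0.41 ± 0.07 (SE, adjusted p = 0.000114) on 1450780_s_at, 0.46 ± 0.14 (SE, adjusted p = 0.0169) on 1450781_at and 1.07 ± 0.16 (SE, adjusted p = 3.92e-05) on 1446196_at. HMGN1_N3swap gave 0.41 (adjusted p = 0.000613), 0.43 (adjusted p = 6.77e-05), 0.43 (adjusted p = 0.0238) and 1.25 (adjusted p = 6.77e-06) on the same probe sets. The shares called were 32.1% and 32.6%, and 37.5% and 37.9% without the pair of arrays that stand apart. Without the pair of arrays that stand apart, 1422851_at gave 0.43 and 0.47, 1450780_s_at 0.40 and 0.45, and 1446196_at 1.21 and 1.41. Only 1450781_at weakened, to 0.24 (adjusted p = 0.0718) and 0.31 (adjusted p = 0.0236), and its calls were also lost without vector replicate 2 or 3.

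RNA quality moved with the swaps. The gap between 3′ and 5′ probe sets of the actin gene Actb, which widens as RNA degrades, was 0.39 to 0.79 on the 6 swap arrays and 0.0072 to 0.39 on the other 18; the ranges met at HMGN1_N2swap replicate 3 and HMGN5SE replicate 1. With that gap as a covariate the 1422851_at differences fell to 0.22 (adjusted p = 0.146) and 0.24 (adjusted p = 0.0931), whereas the other 3 Hmga2 probe sets kept their calls, at 0.35 and 0.37 on 1450780_s_at. Xist stood at 6.88 to 7.78 on the swap arrays and 4.08 to 6.55 on the others. What part the Xist difference has in these results was not tested.

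Hmgb3 ran the other way. The vector pools read 8.77, 8.80 and 8.82, the HMGN1 pools 8.99 to 9.04, and the HMGN2 pools 9.23, 9.22 and 9.15. The HMGN1_N2swap pools read 8.43, 8.42 and 8.71 and the HMGN1_N3swap pools 8.70, 8.41 and 8.22, so the vector stood below HMGN1 and HMGN2 and above every swap array. With HMGN2, Hmgb3 rose by 0.40 ± 0.09 (SE, 1.32-fold, adjusted p = 0.00177), and no left-out array ended that call. HMGN1 gave 0.21 ± 0.09 (SE, adjusted p = 0.116), not called although the groups did not overlap. Hmgb3 fell by 0.28 ± 0.09 (SE, adjusted p = 0.0251) with HMGN1_N2swap and by 0.35 ± 0.09 (SE, adjusted p = 0.00602) with HMGN1_N3swap.

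The swap calls of Hmgb3 were the less steady. That of HMGN1_N2swap was lost without vector replicate 2 or 3 or swap replicate 1 or 2 (adjusted p of 0.0596 to 0.108), and that of HMGN1_N3swap without its replicate 3 (-0.24, adjusted p = 0.0546). Both were also lost where the fit held only the swap and vector arrays (adjusted p of 0.0848 and 0.0651). Without the pair of arrays that stand apart they grew to -0.38 and -0.48, both called, as were 37.5% and 37.9% of all probe sets. With the Actb gap as a covariate they shrank to -0.068 (adjusted p = 0.731) and -0.16 (adjusted p = 0.343). HMGN3a pools (8.98, 8.93 and 8.89) stood above the vector by 0.13 ± 0.09 (SE, adjusted p = 0.692), and HMGN5 (8.79, 8.67 and 8.61) and HMGN5SE (8.75, 8.80 and 8.69) overlapped it.

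Hmgb2 gave a different picture on each of its probe sets. On the bright 1452534_a_at the vector pools read 10.67, 10.64 and 10.83, HMGN1 pools 11.20, 11.18 and 11.19, and HMGN2 pools 10.93, 11.31 and 11.12; neither construct overlapped the vector. HMGN1 raised it by 0.47 ± 0.13 (SE, 1.39-fold, adjusted p = 0.0147), and HMGN2 by 0.41 ± 0.13 (SE, adjusted p = 0.0198). The HMGN1 call was lost without vector replicate 1 or 2 (adjusted p of 0.0509 and 0.0589), and the HMGN2 call without vector replicate 1 or 2, without HMGN2 replicate 2 (adjusted p of 0.0587 to 0.109), or with the Actb gap as a covariate (0.19, adjusted p = 0.119). The swap pools spread widely, at 10.24, 10.49 and 10.87 and at 10.82, 10.36 and 10.35, and gave -0.18 ± 0.13 (SE, adjusted p = 0.331) and -0.21 ± 0.13 (SE, adjusted p = 0.257). The highest value of each was the array that stands apart. Without that pair the differences were -0.35 (adjusted p = 0.0101) and -0.36 (adjusted p = 0.00846), both called, as were 37.5% and 37.9% of all probe sets. With the Actb gap as a covariate the differences were 0.32 (adjusted p = 0.0605) and 0.26 (adjusted p = 0.122).

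On the dimmer 1438307_at the vector pools read 6.35, 6.35 and 6.38. HMGN1 pools read 6.96, 6.88 and 6.91, and both swaps were as high, at 6.90, 6.98 and 6.71 and at 6.87, 6.97 and 6.84. HMGN5 pools read 5.50, 5.51 and 5.38, far below all other pools. The differences were 0.55 ± 0.09 (SE, 1.47-fold, adjusted p = 0.000123) for HMGN1, 0.50 (adjusted p = 0.000183) for HMGN1_N2swap, 0.53 (adjusted p = 0.000107) for HMGN1_N3swap and -0.90 ± 0.09 (SE, 1.87-fold lower, adjusted p = 4.84e-08) for HMGN5. No left-out array ended any of these 4 calls, and without the pair that stands apart the swaps gave 0.58 and 0.55. HMGN2 gave 0.21 ± 0.09 (SE, adjusted p = 0.0665).

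The Hmgb2 probe sets disagreed for HMGN5 and for the swaps. With HMGN5, 1452534_a_at read 10.93, 10.81 and 10.85 and changed by 0.15 ± 0.13 (SE, adjusted p = 0.45), and 1437313_x_at changed by 0.19 ± 0.14 (SE, adjusted p = 0.319), beside the loss on 1438307_at. The third, 1437313_x_at, was called for no construct in these pools, with differences of -0.11 to 0.20. Over the 24 arrays, as a description, 1438307_at and 1452534_a_at correlated at -0.087. The positions of the probes within the transcript were not used here.

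**Figure D2:**
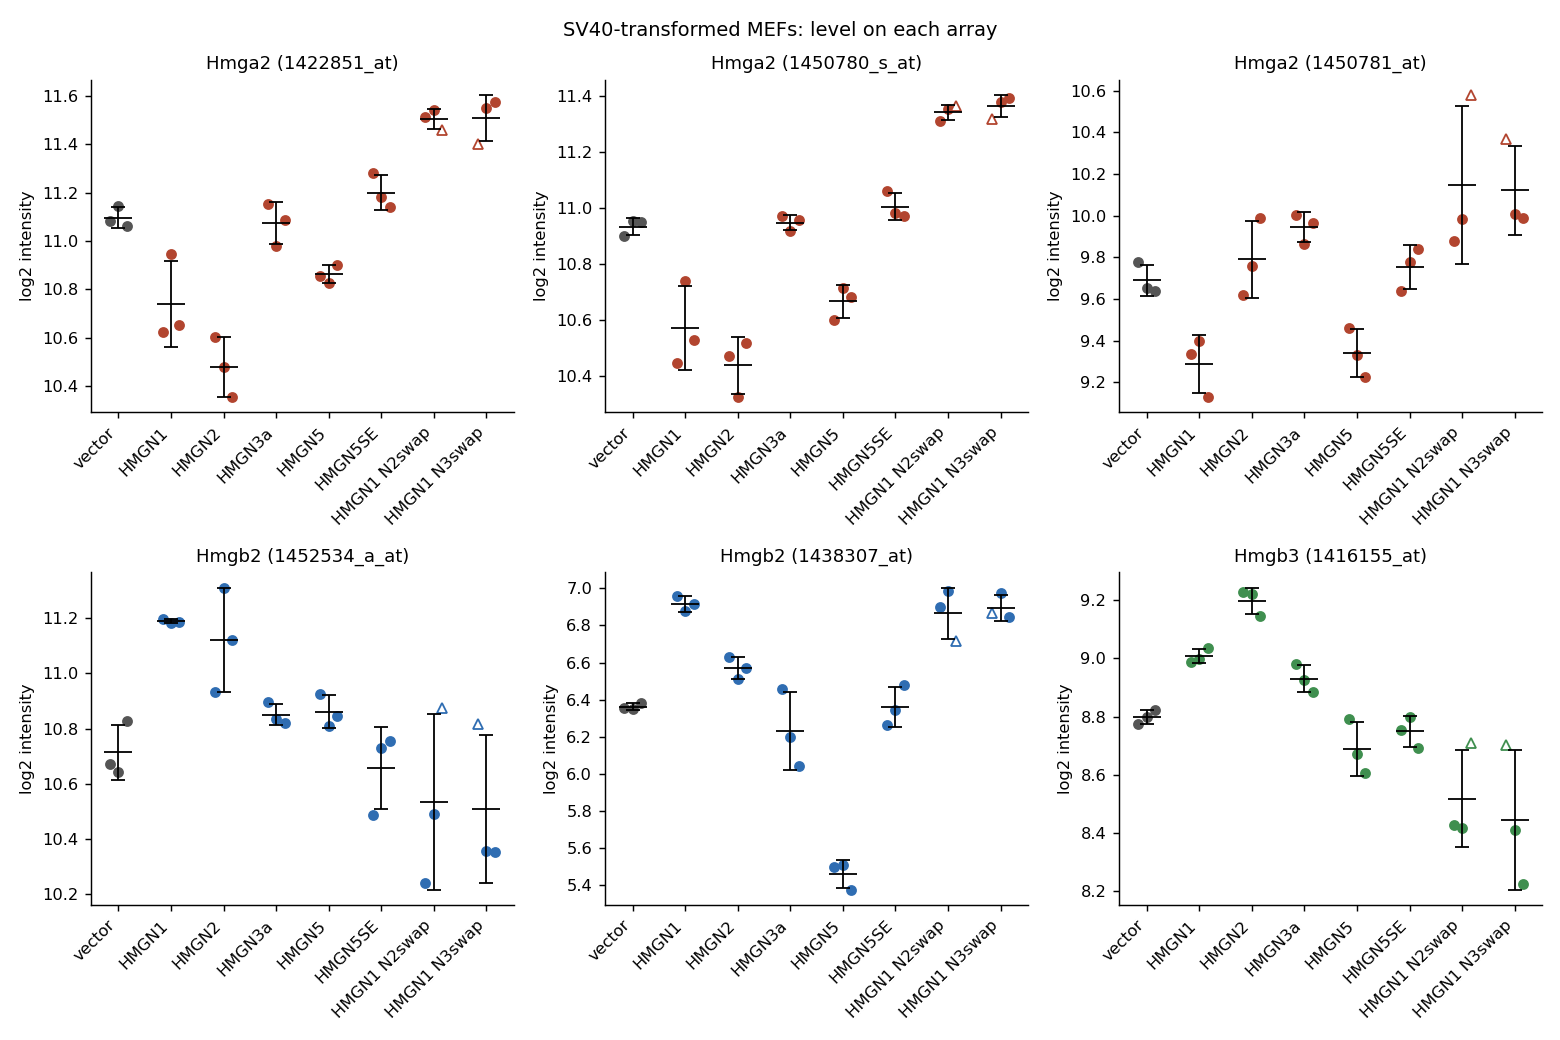
Log2 intensity on each of the 24 SV40 transformed MEF arrays by construct, for 3 Hmga2 probe sets (1422851_at, 1450780_s_at, 1450781_at), 2 of Hmgb2 (1452534_a_at, 1438307_at) and Hmgb3; points are arrays, grey points the vector, bars the mean ± SD (n = 3), and open triangles the pair of swap arrays that resemble each other. On 1422851_at the swaps lie at 11.40 to 11.58 and HMGN2 at 10.35 to 10.60, while HMGN5 stands apart on Hmgb2 1438307_at at 5.38 to 5.51.

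HMGN3a and HMGN5SE called none of the 8 member probe sets in these cells. They called 0.0103% and 0.0138% of probe sets, 3 and 4 in all, with 2712 and 1392 at an unadjusted p under 0.05. The intervals were wide enough to hold changes of the size seen elsewhere on some probe sets: for HMGN3a the 95% interval of Hmga2 1450781_at ran from -0.04 to 0.55, and that of Hmgb2 1452534_a_at from -0.14 to 0.42. On Hmga2 1450780_s_at they were narrower, -0.13 to 0.16 for HMGN3a and -0.07 to 0.22 for HMGN5SE.

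Direct contrasts tested the pools against each other. HMGN2 pools had less Hmga2 than HMGN1 pools on 1422851_at (-0.26 ± 0.08 (SE), adjusted p = 0.0163), a call lost without HMGN1 replicate 2 or HMGN2 replicate 3, but more on 1446196_at (0.62) and 1450781_at (0.50; lost without HMGN2 replicate 3). With the Actb covariate 1422851_at gave -0.17 (adjusted p = 0.127) and 1450781_at 0.23 (adjusted p = 0.0775), no longer called, and Hmgb2 1438307_at kept its difference of -0.34 (adjusted p = 0.00422), at -0.30 (adjusted p = 0.0243). The share called was 36.2%. HMGN5 differed from HMGN5SE on Hmgb2 1438307_at by -0.90 ± 0.09 (SE, adjusted p = 4.73e-08), on Hmga2 1422851_at by -0.34 (adjusted p = 0.00263), on 1450780_s_at by -0.34 (adjusted p = 0.000513) and on 1450781_at by -0.41 (adjusted p = 0.0278). The last was lost in 4 of 6 fits that left out 1 array (replicate 2 or 3 of either), and 33.8% of probe sets were called.

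The swaps differed from HMGN1, the protein they derive from by name, on all 4 Hmga2 probe sets, on Hmgb3 and on Hmgb2 1452534_a_at. For HMGN1_N2swap the differences were 0.76 ± 0.08 (SE, 1.70-fold, adjusted p = 3.05e-07) on Hmga2 1422851_at, -0.49 ± 0.09 (SE, adjusted p = 0.000259) on Hmgb3 and -0.65 ± 0.13 (SE, adjusted p = 0.00056) on Hmgb2 1452534_a_at. For HMGN1_N3swap they were 0.77 (adjusted p = 2.59e-07), -0.56 (adjusted p = 5.71e-05) and -0.68 (adjusted p = 0.000363). No left-out array ended these calls, and without the pair that stands apart they were 0.79, -0.59 and -0.82, and 0.82, -0.69 and -0.83. The Actb gap, 0.20 to 0.34 on the HMGN1 arrays, changed the picture as a covariate. Hmga2 1422851_at stayed called, at 0.58 (adjusted p = 0.000187) and 0.61 (adjusted p = 7.44e-05). Hmgb2 1452534_a_at lost its call for both swaps, at -0.18 (adjusted p = 0.251) and -0.25 (adjusted p = 0.0893). Hmgb3 lost its call for HMGN1_N2swap, at -0.29 (adjusted p = 0.0578), but not for HMGN1_N3swap, at -0.38 (adjusted p = 0.0107). On Hmgb2 1438307_at the swaps and HMGN1 overlapped, with 95% intervals of -0.24 to 0.13 and -0.21 to 0.16. HMGN1_N2swap against HMGN2 gave 1.03 ± 0.08 (SE, 2.04-fold, adjusted p = 4.05e-09) on Hmga2 1422851_at and -0.68 (adjusted p = 5.32e-06) on Hmgb3; without the odd array they were 1.05 and -0.78, and with the Actb covariate 0.75 (adjusted p = 0.000395) and -0.38 (adjusted p = 0.0754). Hmgb2 went both ways in this contrast, with 0.29 on 1438307_at (lost without HMGN1_N2swap replicate 2) and -0.59 on 1452534_a_at, and both calls were lost with the Actb covariate (0.15 and 0.14). Hmga2 1450781_at gave 0.36 (adjusted p = 0.0423), which fell to 0.14 (adjusted p = 0.264) without the odd array, was lost without HMGN2 replicate 1 or 2 as well, and was 1.14 with the Actb covariate. Hmga2 1446196_at gave 0.63 and, with that covariate, 0.015 (adjusted p = 0.972). The shares called were 40.3%, 44.9% and 47.7%, so a call by itself was common here.

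**Figure D3:**
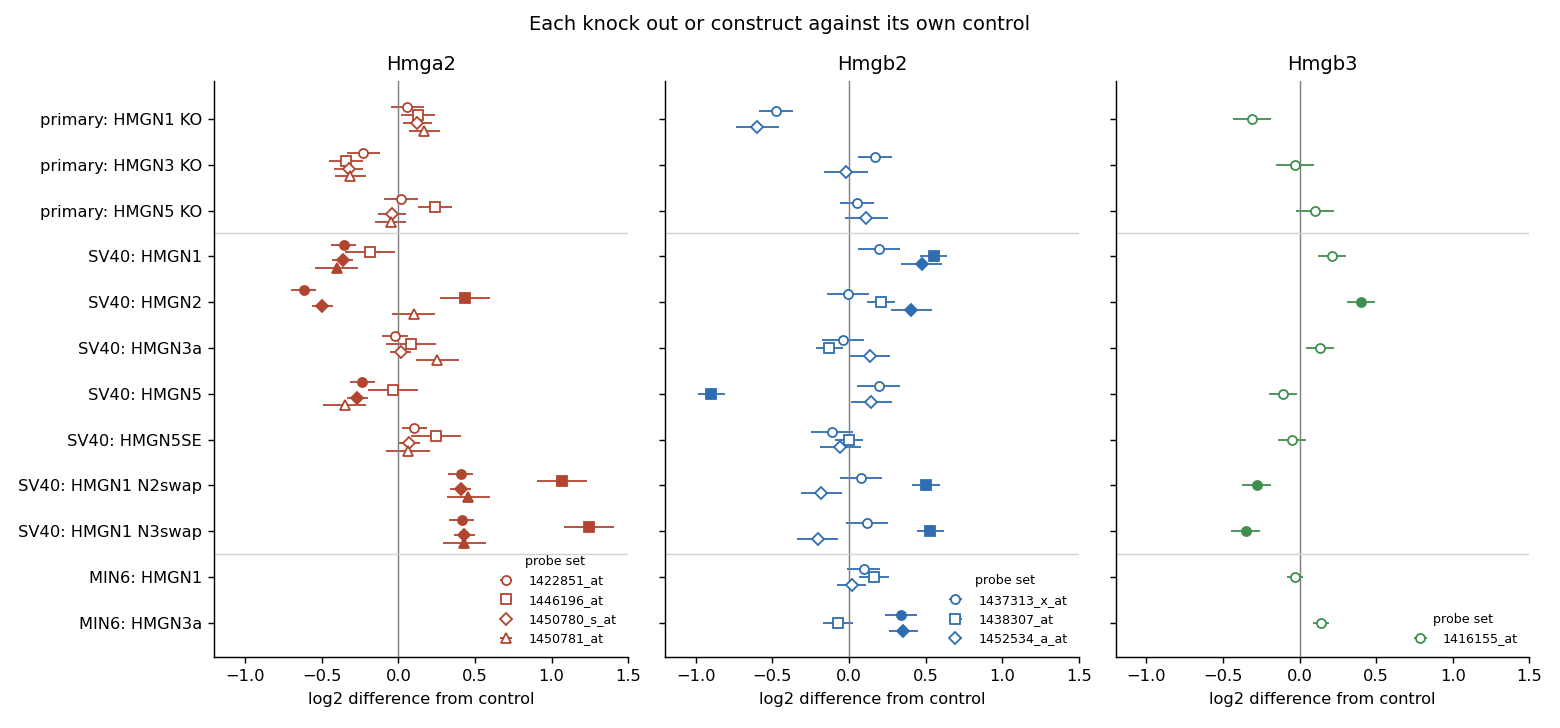
Difference from the control of each knock out or construct (log2, bars the SE) for every tested probe set of Hmga2, Hmgb2 and Hmgb3 in each of the 12 comparisons, with a marker shape per probe set; filled points were called at an adjusted p below 0.05 and open points were not. Hmga2 1422851_at (circles) runs from -0.62 with HMGN2 to 0.41 with the swaps, and Hmgb3 from 0.40 with HMGN2 to -0.35 with HMGN1_N3swap.

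The 5 probe sets shared by Hmgb1 and other genes had, where called with HMGN2 and the swaps, the direction of Hmgb3. Those comparisons called 39.8%, 32.1% and 32.6% of all probe sets. Without a call, 1416176_at went the other way in the swaps, with means of 9.67 and 9.62 against 9.54 with the vector. HMGN2 raised 4 of the 5, by 0.32 (1416176_at, adjusted p = 0.000169), 0.48 (1425048_a_at, adjusted p = 0.00011), 0.51 (1435324_x_at, adjusted p = 0.011) and 0.52 (1439463_x_at, adjusted p = 0.0046). The call of 1435324_x_at was lost without HMGN2 replicate 2 (adjusted p = 0.0528) and with the Actb covariate (0.26, adjusted p = 0.0561). On 1425048_a_at the vector pools read 11.06, 11.10 and 11.15 and the HMGN2 pools 11.60, 11.74 and 11.40. HMGN1_N2swap (10.60, 10.78 and 10.90) and HMGN1_N3swap (10.88, 10.72 and 10.62) lay below the vector, with differences of -0.34 ± 0.08 (SE, adjusted p = 0.00305) and -0.36 ± 0.08 (SE, adjusted p = 0.00207). HMGN5 raised it by 0.26 ± 0.08 (SE, adjusted p = 0.0201), lost without vector replicate 1 or 2 or HMGN5 replicate 1. Hmgb3 did not rise with HMGN5, with a mean of 8.69 against 8.80 with the vector. The swaps also lowered 1435324_x_at by 0.44 each and HMGN1_N2swap 1439463_x_at by 0.38, calls that 5 of 6 left-out arrays ended and the Actb covariate turned to 0.14, 0.090 and 0.11. With the Actb covariate the swap differences on 1425048_a_at were -0.21 (adjusted p = 0.191) and -0.24 (adjusted p = 0.118). In HMGN1 knock out all 5 had differences of -0.22 to -0.32, none of them called. Between WT cultures, 1416176_at was called lower in HMGN3 WT (mean 7.42) than in HMGN1 WT (7.65) and HMGN5 WT (7.65). These calls were lost in 2 and 4 of 6 fits that left out 1 array, and both with a second quantile normalization. Hmgb3 was called in neither contrast.

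In MIN6 cells Hmgb2 rose with HMGN3a on its bright probe sets. On 1452534_a_at the vector pools read 11.22, 11.53 and 11.16, HMGN3a pools 11.59, 11.74 and 11.64 and HMGN1 pools 11.35, 11.29 and 11.32. HMGN3a stood above every vector array, by 0.36 ± 0.09 (SE, 1.28-fold, adjusted p = 0.0169), a call lost without vector replicate 1 or 3 or HMGN3a replicate 2 (adjusted p of 0.052 to 0.0622). On 1437313_x_at the vector pools read 10.84, 11.24 and 10.84 and the HMGN3a pools 11.19, 11.36 and 11.39. These overlapped; the difference was 0.34 ± 0.11 (SE, adjusted p = 0.0384), lost without vector replicate 1 or 3 or HMGN3a replicate 2 or 3 (adjusted p of 0.102 to 0.126). The third probe set, 1438307_at, gave -0.07 ± 0.10 (SE, adjusted p = 0.616). Vector replicate 2 was the high array on both bright probe sets. Markers of other cells moved in the same pools: the summed linear intensity of 4 markers of other islet cells was 4930 to 5170 with vector and 2360 to 2680 with HMGN3a, and that of 6 epithelial markers 4320 to 4510 and 6080 to 6550. Of the tested ones, 1 islet marker rose and 2 fell of 3, and 3 of 5 epithelial markers rose. Their part in the Hmgb2 difference was not tested.

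Hmgb3 in MIN6 read 10.12, 10.06 and 10.05 with vector and 10.23, 10.19 and 10.23 with HMGN3a, a difference of 0.14 ± 0.05 (SE, adjusted p = 0.0834). With HMGN1 no member was called, and the differences lay between -0.03 and 0.17. HMGN3a called 27% of probe sets and HMGN1 0.468%. Whether the constructs acted differently on Hmgb2 and Hmgb3 in the 2 lines was tested directly, and none of their 4 probe sets was called. For HMGN1, Hmgb2 1452534_a_at gave 0.46 ± 0.18 (SE, adjusted p = 0.0899), Hmgb2 1438307_at gave 0.39 ± 0.13 (SE, adjusted p = 0.0505) and Hmgb3 gave 0.24 ± 0.12 (SE, adjusted p = 0.186), beside 13.6% of probe sets called. For HMGN3a the widest of these was Hmgb2 1437313_x_at, at -0.38 ± 0.19 (SE, adjusted p = 0.196), beside 14.1%. Hmga2 entered this test through its level in SV40 transformed MEFs, and none of its 4 probe sets was called. Its differences between the lines were -0.44 to -0.09 for HMGN1 and -0.11 to 0.14 for HMGN3a. Since Hmga2 was below the filter in MIN6, these values cannot tell whether it changed there.

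**Figure D4:**
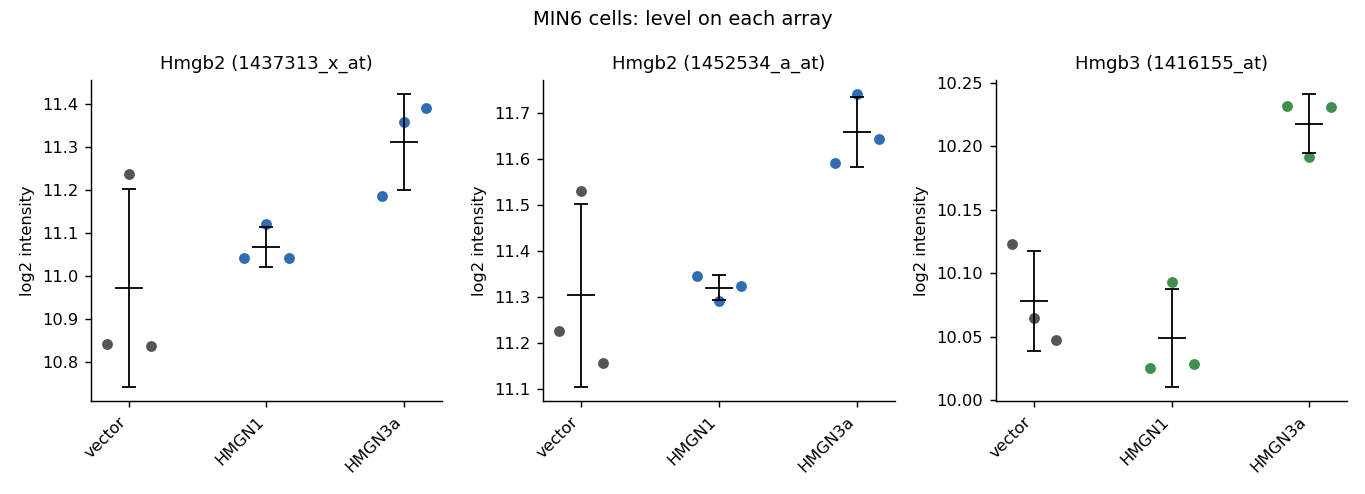
Log2 intensity of Hmgb2 (1437313_x_at, 1452534_a_at) and Hmgb3 (1416155_at) on each of the 9 MIN6 arrays by construct; points are arrays, grey points the vector and bars the mean ± SD (n = 3). The HMGN3a group mean is highest on all 3 panels, and vector replicate 2 is the high vector array on the Hmgb2 panels (11.24 and 11.53).

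The cell cycle genes with which Hmgb2 is usually high were counted from gene lists. Each count here and in the lists that follow is to be read against the share of all probe sets called in its comparison. That share was 20.9% with HMGN1, 39.8% with HMGN2, 33.3% with HMGN5, 32.1% and 32.6% with the swaps and 27% with HMGN3a in MIN6. Without the pair of arrays that stand apart, the swap shares were 37.5% and 37.9%. With HMGN1 in SV40 transformed MEFs, 21 of 24 mitosis genes rose and none fell (median 0.31, against -0.0017 over all probe sets), among them the kinetochore gene Ndc80 by 0.52, the kinase Plk1 by 0.50, Cenpf by 0.50 and the motor Kif11 by 0.48. Of 26 DNA replication genes 12 rose (median 0.20), led by Rfc3 at 0.43 ± 0.10 (SE, adjusted p = 0.00493). With HMGN2, where Hmgb2 1452534_a_at rose too, 7 replication genes rose and 7 fell, and 3 mitosis genes rose and 1 fell. With HMGN1_N2swap, 14 of 26 replication genes rose and 1 fell, and 9 of 24 mitosis genes rose; without the pair of arrays that stand apart it was 14, 2 and 10, with 1 mitosis gene lower. With HMGN1_N3swap the counts were 10, 1 and 9, and without the pair 15, 3 and 7, again with 1 mitosis gene lower. In MIN6, HMGN3a raised 10 of 26 replication genes (Mcm5 by 0.65 ± 0.08 (SE), adjusted p = 0.000286) and raised 11 and lowered 2 of 24 mitosis genes (Tpx2 by 0.50).

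The gene list for the let-7 and Lin28 axis moved most with HMGN5, where 7 of 9 tested genes fell (median -0.37 against -0.02 over all probe sets). The list held no let-7 microRNA itself, and a link of its changes to Hmga2 was not tested. Trim71, a let-7 target and stem cell ubiquitin ligase, fell by 2.41 ± 0.10 (SE, adjusted p = 1.82e-14), Mycn by 0.89, Plagl2 by 0.54 and Arid3b by 0.49. In the SV40 transformed pools Mycn was the only gene of this list called with HMGN3a, at -0.50 ± 0.07 (SE, adjusted p = 0.00788), and with HMGN5SE, at -1.58 ± 0.07 (SE, adjusted p = 7.68e-12). In the pools where Hmga2 rose, HMGN1_N2swap gave 1 higher and 2 lower of 9 and HMGN1_N3swap 2 and 2. In MIN6, 2 of 9 fell and 1 rose with HMGN3a: Lin28a, which blocks let-7 maturation, fell by 0.86 ± 0.10 (SE, adjusted p = 0.000168), Mycn fell by 0.26 and Plagl2 rose by 0.25. With HMGN1 there, only Mycn was called, at -0.38 (adjusted p = 0.0155). In primary MEFs, Trim71 stood above HMGN1 WT in HMGN3 WT by 0.61 ± 0.13 (SE, adjusted p = 0.00291) and was 1 of 8 tested genes called. Over all probe sets 24.3% were called in that contrast, so the list held no excess of calls.

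Of 12 genes linked to HMGA in earlier studies, 5 rose with HMGN1_N2swap and 6 with HMGN1_N3swap, the same counts as without the odd pair, and none fell. The ligand Kitl rose by 1.39 and 1.29, the cell cycle inhibitor locus Cdkn2a by 0.83 and 1.02, the prostaglandin enzyme Ptgs2 by 0.76 each and the transcription factor Snai2 by 0.52 and 0.38. With HMGN5, where Hmga2 fell, 7 of the 12 rose, among them Ptgs2 by 1.44 ± 0.10 (SE, adjusted p = 1.54e-10), Snai2 by 1.09, Cdkn2b by 0.87 and Cdkn2a by 0.62. With HMGN1, Ptgs2 fell by 1.49 ± 0.10 (SE, adjusted p = 4.13e-10) and Snai2 by 0.74, among 3 lower and 2 higher. With HMGN2, 5 rose and 1 fell.

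Linker histones, which compete with HMG proteins, had 3 genes tested in these pools. H1f2 rose by 0.68 ± 0.10 (SE) with both HMGN1 (adjusted p = 4.52e-05) and HMGN2 (adjusted p = 1.77e-05), and H1f10 by 0.35 with each. H1f2 fell by 0.92 with HMGN1_N2swap (adjusted p = 6.98e-07), by 0.79 with HMGN1_N3swap and by 0.39 with HMGN5. Neither this list nor the other gene lists were refitted with the Actb gap as a covariate, so the part of RNA quality in their swap results was not tested. All 3 were lower with HMGN1_N2swap and 2 with HMGN1_N3swap, with and without the odd pair. Of the genes for HMGB1 receptors and release, Cxcl12, a chemokine that binds HMGB1, rose by 2.00 with HMGN2, 3.53 with HMGN5, 2.41 with HMGN1_N2swap and 2.34 with HMGN1_N3swap, and Cd24a, a surface glycoprotein, rose by 4.58 ± 0.13 (SE, adjusted p = 3.88e-17) with HMGN5 but fell by 0.66 and 0.62 with the swaps. With HMGN3a in MIN6, Cxcl12 fell by 0.30 (adjusted p = 0.0333) and Cd24a fell by 0.29 (adjusted p = 0.00895). Of 5 tested partners of HMGB2 in the SET complex, the endonuclease Apex1 was higher with HMGN2 and HMGN5, by 0.45 each, with the swaps, by 0.54 and 0.57, and with HMGN3a in MIN6, by 0.35. Among 16 other HMG-box genes tested, Bbx fell by 0.71 and 0.81 and Tcf7l2 rose by 0.87 and 0.90 with the swaps. The genes named were picked as the largest called changes. Without the odd pair, 2 of the 16 rose and 2 fell with HMGN1_N2swap, and 2 rose and 4 fell with HMGN1_N3swap. With each swap 3 rose and 2 fell of 10 HMGB1 receptor and release genes, and 2 rose and 0 fell of 5 SET partners. The shares of all probe sets called there were 37.5% and 37.9%.

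The genes whose levels ran most like the members' are given as a description, with no test; all arrays of a cell type share its groups and normalization. Over the 18 primary MEF arrays and 13671 genes, the highest Pearson r to Hmga2 were 0.966 (Cmtm3), 0.943 (Bag2) and 0.933 (Tm2d2). To Hmgb2 they were 0.952 (Fbxo5), 0.95 (Ranbp1) and 0.945 (Orc6), and to Hmgb3 0.917 (Rfc2), 0.916 (Odf2) and 0.913 (Timm50). Over the 24 SV40 transformed MEF arrays the top genes were others: Map2k3 (0.968), Tacc2 (0.956) and Rin1 (0.948) for Hmga2, Usp8 (0.927), Tusc3 (0.915) and Ldha (0.914) for Hmgb2, and Ywhaz (0.971), Trim23 (0.953) and Ptprj (0.947) for Hmgb3. Among the members themselves, Hmga2 1422851_at correlated with Hmgb3 at -0.839 and with Hmgb2 1452534_a_at at -0.834 over these 24 arrays, and Hmgb3 with Hmgb2 1452534_a_at at 0.848. Over the 18 primary arrays the last was 0.785, whereas Hmga2 and Hmgb3 gave -0.00053. Other probe sets did not all follow over the 24 SV40 transformed MEF arrays. Hmgb3 gave -0.071 with Hmgb2 1437313_x_at and -0.055 with Hmgb2 1438307_at, and Hmga2 1422851_at gave 0.27 with the latter. With Hmgb3 and Hmgb2 1452534_a_at, Hmga2 1450780_s_at gave -0.807 and -0.812, but Hmga2 1450781_at gave -0.268 and -0.344.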

How the data were processed

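RNA of 51 samples was read on Affymetrix Mouse Genome 430 2.0 arrays. The deposited value table holds linear probe set intensities from the authors; RMA is the method named by the submitters' processing notes, and its version and settings and any genome build are not given in the sources used here. Intensities were taken to log2 and fitted with limma 3.58.1 (R 4.3.3; tables were read with version 1.17.8 of data.table), lmFit and eBayes, with 1 mean per group and each cell type fitted apart. p-values were adjusted (Benjamini-Hochberg) over 28578, 29087 or 27790 tested probe sets (primary MEF, SV40 transformed MEF, MIN6), leaving out 64 control probe sets. Contrasts of the 2 lines ran over 31760. A list took the brightest tested probe set of each gene, and up to 4 called genes a list, by size of change, were named. Of all probe sets 34958 carry 1 gene symbol, 932 several and 9211 none. Precision is limited by 3 arrays per group. Promoters came from RefSeq (python 3.11.15, pandas 2.3.3; figures in matplotlib 3.10.9). The fit was tested on simulated data. Members, lists and tests were chosen with earlier results of these data known. Replicate numbers did not pair the samples: same-numbered arrays of different groups correlated at -0.346 to 0.15, -0.513 to 0.292 and -0.396 to 0.4 in the 3 cell types. The alternatives were no filter, 1 probe set per gene, a second quantile normalization, a replicate block, array weights, only the compared groups and left-out arrays. Further alternatives took the score of Y-linked genes or the Actb gap as a covariate. Leaving out both odd swap arrays and the checks of the direct contrasts, the Actb gap included, were chosen after seeing the data.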

Additional observations from a re-analysis of the deposited data

How the results depend on the processing

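The count of member probe sets called kept its side in all 15 main comparisons under a second quantile normalization and under the replicate block. The block for replicate number gave 4 in place of 5 for HMGN1 in SV40 transformed MEFs, moved no count by over 1.5 times, and ended 2 single calls (Hmga2 1450781_at with HMGN1, adjusted p = 0.0597, and the shared 1439463_x_at with HMGN1_N2swap, adjusted p = 0.0505). Only 3 of 18, 2 of 24 and 4 of 9 arrays correlated best with their own number. Array weights gave 3, 2 and 1 calls in the HMGN1, HMGN3 and labelled HMGN5 knock outs in place of 0. They also gave 5 in place of 3 for HMGN3 WT against HMGN1 WT and 5 in place of 0 for HMGN5 WT against HMGN1 WT. The share of all probe sets called with array weights is not given here, so these counts are not read as results about the members. With 1 probe set per gene, which leaves fewer member probe sets by construction, the counts were 1 for HMGN3 WT against HMGN1 WT and for HMGN5 WT against HMGN3 WT, 2 for HMGN1, 3 for HMGN2, 1 for HMGN5, 2 for each swap and 1 for HMGN3a in MIN6. HMGN3a in MIN6 also gave 1 in place of 2 with no filter and when its fit held just the arrays compared; the cause was not tested. Leaving out 1 array gave 0 to 3 for HMGN3 WT against HMGN1 WT, 0 to 2 for HMGN5 WT against HMGN1 WT, 3 to 4 for HMGN5 WT against HMGN3 WT, for HMGN1 and for HMGN2, 2 to 3 for HMGN5, 4 to 6 and 5 to 6 for the swaps and 0 to 2 for HMGN3a in MIN6. For the block, 1 probe set per gene, no filter, only the compared groups and left-out arrays, the share of all probe sets called is not given either. Their counts are likewise not read as results about the members. The Actb covariate reversed the shared 1435324_x_at with HMGN1_N2swap (0.14) and HMGN1_N3swap (0.090) and 1439463_x_at with HMGN1_N2swap (0.11); the cause was not tested. Fits of only the compared groups also ended the calls of Hmgb3 with both swaps (adjusted p = 0.0848 and 0.0651), of Hmga2 1450781_at with HMGN1_N2swap (0.0881) and of Hmga2 1446196_at between HMGN5 WT and HMGN3 WT (0.0779). Without a filter Hmga2 lost the calls of 1450781_at with HMGN1 (0.0639), 1446196_at with HMGN2 (0.0506) and 1422851_at with HMGN5 (0.0539). Without both odd swap arrays 16 of 19 single values kept their side, 2 became called and 1 lost its call. Groups of 3 arrays limit what could be called, and Hmga2 stayed below the filter in MIN6.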
